A study of Mus musculus with 20 samples.

Results

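The genes described here are a chosen list of antioxidant genes. Among them are the transcription factor NRF2 (gene Nfe2l2) with its partners, and the enzymes that make, use and recycle glutathione. Also included are genes of the thioredoxin and glutaredoxin systems, the peroxiredoxins, the glutathione peroxidases, catalase and the superoxide dismutases. They are 42 genes taken by name from 56748 genes in each of 2 tables of gene counts, with no threshold on a measured value, though earlier results of these data were known when the list was made. Poly-A RNA was sequenced in 20 libraries from mouse macrophages. The first experiment (12 libraries, 3 per group) compared wildtype cells with cells lacking iNOS, the inducible nitric oxide synthase encoded by Nos2 that makes nitric oxide (NO) in activated macrophages, and is called the iNOS experiment below. The second (8 libraries, 2 per group) compared wildtype RAW264.7 cells, a macrophage-like mouse line, with RAW264.7 cells lacking Akr1a1, a reductase that acts on small S-nitroso compounds, and is called the Akr1a1 experiment. In both, cells were left unstimulated or were held for 48 h with 50 ng/mL LPS and IFNγ, the latter at 30 ng/mL in the iNOS experiment and 10 ng/mL in RAW264.7 cells.

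The labels name the 12 libraries of the iNOS experiment bone marrow-derived macrophages (BMDM) of C57BL/6J mice aged 6 to 12 weeks, male or female, grown with 20 ng/mL M-CSF, whereas the methods of the study name RAW264.7 cells for the same design, so the cell population of these libraries is not settled here. For BMDM the methods state that marrow was pooled by genotype. The methods name C57BL/6J mice for wildtype cells, a separate Nos2 mutant strain for iNOS KO cells, and a narrower age range. If those mice were the source, strain and knockout cannot be told apart. For the Akr1a1 experiment the methods state that the knockout was made by CRISPR-Cas9 and that the 2 replicates of a group were separate clones. If pooled cells or clones were the source, the spread between libraries of a group is that between cultures or clones and not between animals. In the Akr1a1 experiment the titles of both unstimulated replicate B libraries say stimulated while their treatment field and library names say unstimulated, and they were used as unstimulated. In bulk RNA fewer cells of a kind and less RNA per cell cannot be told apart.

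NRF2 is held in the cytoplasm and marked for degradation by KEAP1, whose cysteines react with oxidants and electrophiles. Freed NRF2 pairs with a small MAF protein such as MAFG and binds antioxidant response elements, where BACH1 acts as a repressor. Its targets supply cysteine and glutathione, reduce thioredoxin, and feed the peroxidases that remove hydrogen peroxide, which classically activated macrophages make together with superoxide and NO.

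Promoter sequences of RefSeq (GRCm38.p6, 250 bases before to 50 after a transcription start) were found for 37 of the 42 genes, in 48 windows. The core of the antioxidant response element, TGACNNNGC on either strand, lay in 9 of these 37 genes (Nfe2l2, Mafg, Ugdh, Gclm, Mgst1, Txnrd1, Srxn1, Prdx1 and Sod1), in 18.8% of their windows against 12.4% of the 32851 windows of all genes. The stretches below are those of 4 genes whose levels rose on stimulation in each genotype of both experiments (values below, those of Txnrd1 and Gclm in wildtype RAW264.7 cells not called without the libraries of conflicting titles), with the match in capitals. In these windows the match reads on the reverse strand. The other genes among the 9 with the match did not all rise (values and limits below). Mafg rose in all 4 stimulation comparisons and Sod1 fell in all 4. Nfe2l2 and Ugdh passed in neither wildtype comparison and rose in iNOS KO cells, and Ugdh fell in Akr1a1 KO cells. Mgst1 rose in the iNOS experiment and was not tested in the Akr1a1 experiment. The match thus did not go with a rise in every gene.
Prdx1, at positions -173 to -85 from the start (chr4:116685426-116685514, + strand): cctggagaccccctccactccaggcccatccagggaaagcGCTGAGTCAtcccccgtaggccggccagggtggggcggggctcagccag
Txnrd1, at positions -132 to -44 (chr10:82859074-82859162, + strand): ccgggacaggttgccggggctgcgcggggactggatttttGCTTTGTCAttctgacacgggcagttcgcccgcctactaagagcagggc
Gclm, at positions -174 to -86 (chr3:122245383-122245471, + strand): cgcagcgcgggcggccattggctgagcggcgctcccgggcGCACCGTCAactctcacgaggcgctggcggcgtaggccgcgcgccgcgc
Srxn1, at positions 20 to 46, past the start (chr2:152105543-152105569, + strand): cagtgggcaGCTAGGTCAgagtgagac
The match in Prdx1 overlaps a second element, the AP-1 site TGACTCA, which was found on either strand in 5 of the 37 genes (Glrx, Gstp1, Osgin1, Prdx1 and Srxn1), in 12.5% of their windows and 5.2% of all windows. A match of letters is no evidence of binding.

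Library totals were 15072109 to 18878107 counts in the iNOS experiment and 11876719 to 44583327 in the Akr1a1 experiment. The 2 deepest were the unstimulated replicate B libraries of conflicting titles, at 44583327 (wildtype) and 27253156 (Akr1a1 KO). The others of the Akr1a1 experiment held at most 19383229. Nos2 lay at 1.25 to 1.53 CPM (counts scaled to a common library size after TMM normalisation) in unstimulated and 10370 to 11533 CPM in stimulated wildtype libraries of the iNOS experiment, and at 0 counts in unstimulated and 870 to 912 CPM in stimulated iNOS KO libraries, so transcripts of the locus were present in stimulated KO cells at a lower level. Akr1a1 lay at 427 to 675 CPM in the 4 wildtype libraries and 21.8 to 370 CPM in the 4 Akr1a1 KO libraries of its experiment. Both ranges take in unstimulated and stimulated libraries. Transcript thus remained in KO libraries, at differing levels. The study screened clones for the knockout by immunoblot, that is by protein. In the 2 libraries with conflicting titles, Nos2 lay at 30.7 and 38.1 CPM, against 4155 to 8806 CPM in the 4 stimulated RAW264.7 libraries. Macrophage markers (8 genes) summed to at least 3282 CPM in every library, with Mertk at 0 counts in some, but differed between groups. In the iNOS experiment they summed to 7850 to 8195 CPM in unstimulated wildtype and 5490 to 5872 CPM in unstimulated KO libraries. Stimulated wildtype libraries held 7773 to 8725 CPM and stimulated KO libraries 12251 to 13046 CPM. In RAW264.7 cells unstimulated wildtype and KO libraries held 4339 to 4870.5 and 3282 to 3476 CPM. Their stimulated libraries held 11795 to 12013 and 4949 to 8813 CPM in the same order. Lymphocyte markers (6 genes) summed to at most 0.693 CPM. Neutrophil markers (7 genes) moved with stimulation, from 0.433 to 1.17 CPM in unstimulated to 35.7 to 62.1 CPM in stimulated libraries of the iNOS experiment and from 0.218 to 0.623 CPM to 120.7 to 419.9 CPM in RAW264.7 cells, with S100a8 at up to 60.9 and 419 CPM and Ly6g at 0 in all 12 and in 6 of 8 libraries. Fibroblast markers (6 genes) summed to 0 to 0.293 CPM in unstimulated, 3.65 to 4.92 CPM in stimulated wildtype and 11.3 to 16.6 CPM in stimulated iNOS KO libraries, with Dcn at up to 15.5 CPM and Col3a1 at 0 in all 12, and to at most 3.87 CPM in RAW264.7 cells. Markers of proliferating cells (8 genes, Mki67 and Top2a among them) differed between the groups compared below. They summed to 1851 to 2053 CPM in the unstimulated libraries of the iNOS experiment, 49.6 to 51.9 CPM in stimulated wildtype and 951 to 1222 CPM in stimulated iNOS KO libraries, and to 2834 to 3415 CPM in unstimulated and 14.9 to 33.5 CPM in stimulated RAW264.7 libraries. The study states that BMDM do not proliferate in any genotype or state, and that NO made on stimulation inhibits proliferation of RAW264.7 cells. Which cells the libraries of the iNOS experiment hold was not tested. The part of these markers in the results below was not tested. Between replicates, counts spread by a chi-square per degree of freedom of 2.65 to 7.74 in the iNOS experiment, except that stimulated iNOS KO B stood apart from A and C (28.8 and 36.8), and of 15.5 to 68.6 between the clones of the Akr1a1 experiment, the highest between the stimulated wildtype clones. No call of a member was lost without stimulated iNOS KO B.

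Stimulation was compared with no stimulation in wildtype cells of the iNOS experiment to ask which antioxidant genes change in classical activation. With edgeR (quasi-likelihood test, p-values adjusted by Benjamini-Hochberg over 18691 genes), 26 of the 40 members with enough counts rose and 11 fell, against 32.4% of all genes higher and 28.5% lower. In iNOS KO cells 24 rose and 6 fell, against 27.3% and 24.6% of all genes. The median log2 fold change of the members was 0.49 in wildtype and 0.46 in KO cells, beside 0.071 and -0.00032 over all genes. Scaling by library totals in place of TMM moved these medians over all genes to -0.39 and -0.41, and those of the members to 0.024 and 0.041. The split of the members became 14 higher and 15 lower in wildtype, against 21.6% and 42% of all genes. In KO cells it became 12 higher and 15 lower, against 16.5% and 42.1% of all genes. Small changes on stimulation are thus relative to the chosen scale. Ggt5, a gamma-glutamyl transferase, held at most 1 count in a library and Sod3, the secreted superoxide dismutase, 0 counts in all 20, and neither was tested.

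The same genes were compared between genotypes to ask which of these changes depend on iNOS. In stimulated cells 13 members were higher and 15 lower in iNOS KO than in wildtype libraries, against 24.2% of all genes in each direction. In unstimulated cells 1 was higher (Gstp1) and 7 were lower, against 1.88% and 4.09% of all genes. The interaction of genotype and stimulation, which compares the stimulation response of KO cells with that of wildtype cells, passed for 28 members, 16 with a more positive and 12 with a more negative response in KO cells, against 20% and 15.4% of all genes. These comparisons share libraries with each other and with the stimulation comparisons, so their counts are not independent of them.

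**Figure D1:**
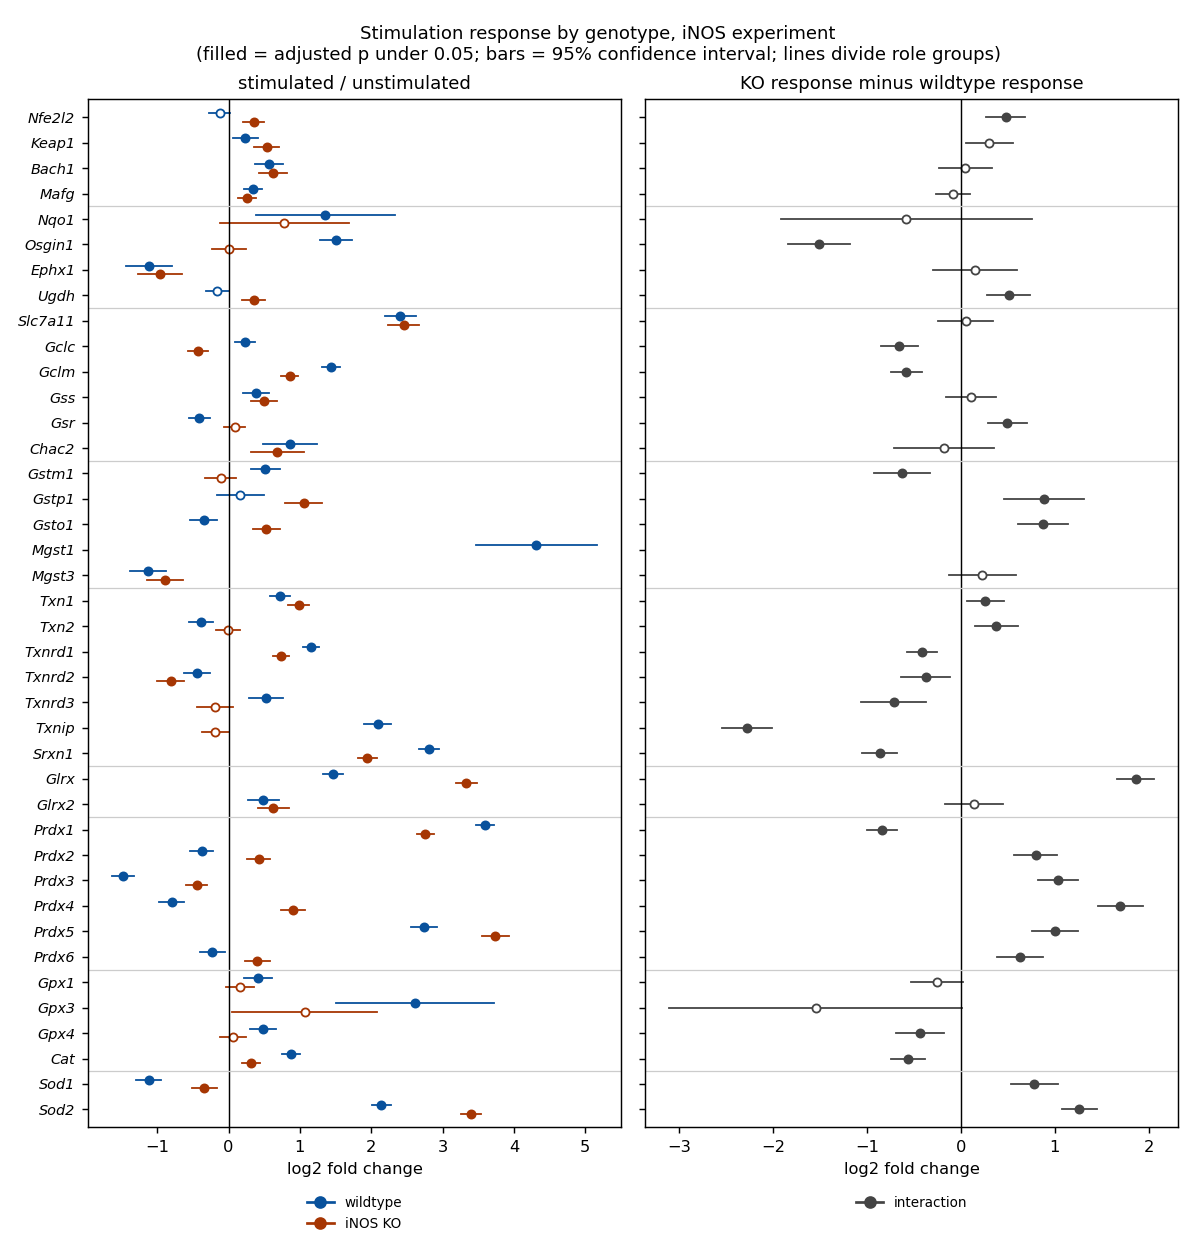
Stimulation response of the members in the iNOS experiment: log2 fold changes (horizontal axis) of stimulated over unstimulated wildtype (blue) and iNOS KO (brown) cells at left, and the KO minus the wildtype response at right, with 95% confidence intervals and filled points at an adjusted p under 0.05. Txnip rose by 2.09 in wildtype and lay at -0.18 in KO cells, Prdx4 lay at -0.80 and 0.90, and Mgst1 is shown only for wildtype because its unstimulated KO libraries held 0 counts.

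The regulators changed by at most 0.62 on the log2 scale in any of these comparisons. Nfe2l2, which encodes NRF2, lay at 153, 146 and 149 CPM in unstimulated and 131, 137 and 143 CPM in stimulated wildtype libraries, and at 113, 113 and 116 CPM in unstimulated and 148, 131 and 158 CPM in stimulated KO libraries. Unstimulated KO libraries were the lowest of the 4 groups and overlapped none of the others. Stimulation did not pass in wildtype (-0.13 ± 0.071, adjusted p = 0.139, but -0.59 and called lower with library totals), raised it in KO cells (0.35 ± 0.071, adjusted p = 0.00049, and -0.067 with library totals) and gave an interaction of 0.48 ± 0.10, adjusted p = 0.00117. It was lower in unstimulated KO than in unstimulated wildtype cells (-0.39 ± 0.071, adjusted p = 0.00224). Keap1, its inhibitor, lay at 59.3, 57.7 and 65.3 CPM in unstimulated and 71.1, 72 and 71.3 CPM in stimulated wildtype libraries, and at 51.3, 54.4 and 60 CPM in unstimulated and 81.4, 87 and 71.8 CPM in stimulated KO libraries. The stimulated libraries lay above the unstimulated ones of their genotype with no overlap. Keap1 rose in wildtype (0.23 ± 0.084, adjusted p = 0.0234) and KO cells (0.53 ± 0.083, adjusted p = 4.08e-05), but with library totals the KO call was lost (0.12) and the wildtype value turned to -0.23, and the wildtype call was lost without any 1 of 3 libraries (unstimulated A or B, or stimulated B, at 0.20 to 0.23, adjusted p = 0.0579 to 0.0908). The KO and wildtype responses of Keap1 did not pass the test of their difference (0.30 ± 0.12, adjusted p = 0.0586, but called at 0.34 with library totals).

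Bach1, the repressor at antioxidant response elements, lay at 53.1, 54.4 and 53.2 CPM in unstimulated and 79.3, 81.6 and 78 CPM in stimulated wildtype libraries, and at 48.5, 46.6 and 47.6 CPM in unstimulated and 80.6, 59.3 and 79.4 CPM in stimulated KO libraries. Its stimulated libraries were the higher in both genotypes, with KO replicate B the lowest of the 6. It rose by 0.57 ± 0.093 in wildtype and 0.62 ± 0.093 in KO cells (adjusted p = 4.53e-05 and 2.74e-05), calls that were lost with library totals (0.11 and 0.20). Mafg, a DNA-binding partner of NRF2, lay at 191, 188 and 199 CPM in unstimulated and 237, 256 and 238 CPM in stimulated wildtype libraries, and at 172, 177 and 175 CPM in unstimulated and 208, 220.1 and 199 CPM in stimulated KO libraries. All stimulated libraries lay above all unstimulated ones. Mafg rose in wildtype (0.34 ± 0.061, adjusted p = 0.000117) and KO cells (0.26 ± 0.061, adjusted p = 0.00186) and was lower in stimulated KO than in stimulated wildtype cells (-0.22 ± 0.061, adjusted p = 0.00601), but both rises turned negative with library totals (-0.12 and -0.16) and the genotype call was lost (-0.12). Mafg overlaps Sirt7 on the same strand in the table.

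Among the enzymes of quinone and xenobiotic metabolism, Osgin1 responded by genotype. Osgin1, an oxidative stress response gene that limits growth, lay at 17.4, 21.1 and 19.3 CPM in unstimulated and 55.9, 56.5 and 52.1 CPM in stimulated wildtype libraries, and at 13.5, 13.8 and 13 CPM in unstimulated and 13.1, 16.1 and 11.5 CPM in stimulated KO libraries. Stimulated wildtype libraries stood above all others, and stimulated KO libraries overlapped unstimulated KO ones. Osgin1 rose in wildtype (1.51 ± 0.11, adjusted p = 1.29e-09), lay at 0.0053 ± 0.11, adjusted p = 0.977 in KO cells (but -0.41 and called lower with library totals) and was lower in stimulated KO than stimulated wildtype cells (-2.02 ± 0.11, adjusted p = 1.48e-10), with an interaction of -1.51 ± 0.16, adjusted p = 8.08e-07. It was also lower in unstimulated KO cells (-0.52 ± 0.11, adjusted p = 0.00762), where the call was lost without unstimulated wildtype B (-0.45, adjusted p = 0.053). Ephx1, the microsomal epoxide hydrolase, lay at 14.8, 17.1 and 18.1 CPM in unstimulated and 5.47, 8.57 and 9.01 CPM in stimulated wildtype libraries, and at 18.4, 17.6 and 17.3 CPM in unstimulated and 7.97, 9.95 and 9.43 CPM in stimulated KO libraries. Every stimulated library was below every unstimulated one, and the genotypes overlapped in both states. Ephx1 fell in wildtype (-1.11 ± 0.15, adjusted p = 5.54e-06) and KO cells (-0.96 ± 0.15, adjusted p = 2.87e-05).

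Nqo1, a quinone reductase often used as a readout of NRF2, was close to undetected, at 0.399, 0.278 and 0.293 CPM in unstimulated and 0.554, 0.945 and 1.04 CPM in stimulated wildtype libraries, and at 0.433, 0.299 and 0.634 CPM in unstimulated and 0.643, 1.23 and 0.537 CPM in stimulated KO libraries. The genotypes overlapped in both states. The rise passed in wildtype (1.36 ± 0.46, adjusted p = 0.0168) but not in KO cells (0.78 ± 0.43, adjusted p = 0.141), the interaction did not pass (-0.58 ± 0.63, adjusted p = 0.531), and the wildtype call was lost without unstimulated B, stimulated B or stimulated C (1.19 to 1.27, adjusted p = 0.0507 to 0.0655) and with library totals (0.90). Ugdh, which makes UDP-glucuronate, ranged over 50.6 to 76.7 CPM. It lay at -0.16 ± 0.078, adjusted p = 0.0942 in wildtype (but -0.62 and called lower with library totals), rose in KO cells (0.35 ± 0.077, adjusted p = 0.00097, but -0.065 with library totals) and was higher in stimulated KO than stimulated wildtype cells (0.42 ± 0.078, adjusted p = 0.000224).

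Of the genes of glutathione supply, 5 of 6 rose in wildtype cells on the TMM scale, against 32.4% of all genes. With library totals the rises of Gclc, Gss and Chac2 were not kept. In stimulated KO against stimulated wildtype cells 3 were lower and 1 was higher, against 24.2% of all genes in each direction. Slc7a11, the cystine importer that limits glutathione synthesis, lay at 150.0, 162 and 143 CPM in unstimulated and 816, 798 and 795 CPM in stimulated wildtype libraries, and at 99.2, 93.7 and 101 CPM in unstimulated and 563, 429.7 and 620.1 CPM in stimulated KO libraries. Stimulated libraries were well above unstimulated ones in both genotypes, and KO libraries lay below wildtype ones in both states with no overlap. Slc7a11 rose in wildtype (2.41 ± 0.10, adjusted p = 1.83e-12) and KO cells (2.46 ± 0.10, adjusted p = 2.7e-12), with an interaction of 0.050 and a 95% confidence interval of -0.24 to 0.35. It was lower in KO than wildtype cells both stimulated (-0.58 ± 0.097, adjusted p = 9.3e-05) and unstimulated (-0.63 ± 0.10, adjusted p = 0.000624).

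Gclc and Gclm encode the catalytic and the modifier subunit of glutamate-cysteine ligase, the first enzyme of glutathione synthesis. Gclc lay at 129, 131 and 128 CPM in unstimulated and 145, 149 and 161 CPM in stimulated wildtype libraries, and at 143, 134 and 143 CPM in unstimulated and 102, 99.5 and 111 CPM in stimulated KO libraries. Stimulated wildtype libraries were the highest and stimulated KO libraries the lowest, without overlap. Gclc rose slightly in wildtype cells (0.23 ± 0.066, adjusted p = 0.0069, but -0.24 with library totals), fell in KO cells (-0.43 ± 0.066, adjusted p = 3.38e-05) and gave an interaction of -0.65 ± 0.093, adjusted p = 2.82e-05. Gclm, whose promoter match is shown above, lay at 123, 125 and 129 CPM in unstimulated and 341, 348 and 332 CPM in stimulated wildtype libraries, and at 133, 129.8 and 138 CPM in unstimulated and 242, 242 and 243 CPM in stimulated KO libraries. Both stimulated groups stood above the unstimulated ones, KO below wildtype. Gclm rose in wildtype (1.44 ± 0.057, adjusted p = 6.61e-13) and less in KO cells (0.86 ± 0.056, adjusted p = 1.12e-09), with an interaction of -0.58 ± 0.079, adjusted p = 1.82e-05.

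Gsr, the reductase that recycles oxidised glutathione, lay at 155, 163 and 161 CPM in unstimulated and 113, 126 and 121 CPM in stimulated wildtype libraries, and at 142, 151 and 148 CPM in unstimulated and 162, 164 and 143 CPM in stimulated KO libraries. Stimulated wildtype libraries were the lowest, and those of the other 3 groups lay close together. Gsr fell in wildtype (-0.41 ± 0.069, adjusted p = 6.11e-05), lay at 0.085 ± 0.068, adjusted p = 0.319 in KO cells (but -0.33 and called lower with library totals) and was higher in stimulated KO than stimulated wildtype cells (0.38 ± 0.069, adjusted p = 0.000204). Gss, glutathione synthetase (25.4 to 41.6 CPM), rose in wildtype (0.39 ± 0.088, adjusted p = 0.00101, but -0.074 with library totals) and KO cells (0.50 ± 0.087, adjusted p = 0.000138, not called with library totals at 0.079). Chac2, an enzyme that degrades glutathione (3.33 to 8.78 CPM), rose in wildtype (0.86 ± 0.18, adjusted p = 0.000441) and KO cells (0.69 ± 0.18, adjusted p = 0.00357), calls that were lost with library totals. Reads of Gss and Acss2, and of Chac2 and Asb3, come from overlapping genes on opposite strands in the table, and strand use in counting is not given in the sources used here.

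The glutathione transferases, which conjugate glutathione to electrophiles, moved in different directions. Gstm1 lay at 40.1, 37 and 40.4 CPM in unstimulated and 50.8, 58.4 and 58.7 CPM in stimulated wildtype libraries, and at 24.5, 24.7 and 22.2 CPM in unstimulated and 23.6, 24.2 and 18.6 CPM in stimulated KO libraries. KO libraries lay below wildtype libraries in both states, and in KO cells the states overlapped. Gstm1 rose in wildtype (0.51 ± 0.097, adjusted p = 0.000198, not called with library totals at 0.051), lay at -0.11 ± 0.10, adjusted p = 0.403 in KO cells (-0.53 and called lower with library totals) and was lower in KO cells both stimulated (-1.34 ± 0.10, adjusted p = 8.62e-09) and unstimulated (-0.72 ± 0.099, adjusted p = 0.000163). Gstp1 showed the reverse order of genotypes, at 4.54, 4.28 and 4.75 CPM in unstimulated and 4.22, 5.74 and 5.27 CPM in stimulated wildtype libraries, and at 10.3, 8.86 and 11.4 CPM in unstimulated and 23.1, 21.8 and 18.4 CPM in stimulated KO libraries. KO libraries lay above wildtype ones in both states, and wildtype states overlapped. It was higher in KO cells both stimulated (2.05 ± 0.14, adjusted p = 2.25e-09) and unstimulated (1.17 ± 0.14, adjusted p = 4.22e-05) and rose on stimulation in KO cells (1.05 ± 0.12, adjusted p = 1.89e-06) and lay at 0.17 ± 0.16, adjusted p = 0.376 in wildtype, with an interaction of 0.88 ± 0.20, adjusted p = 0.00218. In the iNOS experiment counts of Gstp1 may be split with Gstp3, which held 33.1% as many counts, and those of Gstm1 with Gstm4 (7.63%).

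Gsto1, an omega-class transferase that also reduces dehydroascorbate, lay at 47, 49.9 and 49.4 CPM in unstimulated and 37, 35.9 and 41.9 CPM in stimulated wildtype libraries, and at 44.3, 44.2 and 42.4 CPM in unstimulated and 55.9, 71.2 and 62.2 CPM in stimulated KO libraries. Stimulated wildtype libraries were the lowest and stimulated KO libraries the highest. Gsto1 fell in wildtype (-0.35 ± 0.09, adjusted p = 0.00279) and rose in KO cells (0.53 ± 0.088, adjusted p = 7.76e-05, not called with library totals at 0.11), with an interaction of 0.88 ± 0.13, adjusted p = 2.99e-05. Mgst3, a microsomal transferase, lay at 44.2, 38.4 and 48.6 CPM in unstimulated and 18.2, 20 and 21.9 CPM in stimulated wildtype libraries, and at 36.3, 38.3 and 38 CPM in unstimulated and 16.4, 23.5 and 20.6 CPM in stimulated KO libraries. Stimulated libraries lay below unstimulated ones and the genotypes overlapped when stimulated. Mgst3 fell in wildtype (-1.12 ± 0.12, adjusted p = 3.01e-07) and KO cells (-0.90 ± 0.12, adjusted p = 6.92e-06). Mgst1, another microsomal transferase, held 1, 2 and 8 counts in unstimulated wildtype and 0 in all unstimulated KO libraries, and lay at 3.95, 3.85 and 4.58 CPM in stimulated wildtype and 3.79, 3.68 and 4.83 CPM in stimulated KO libraries. The stimulated genotypes overlapped. Mgst1 rose in wildtype (4.31 ± 0.40, adjusted p = 1.62e-07), and in KO cells it was at least 28.0-fold higher when stimulated, against the floor of 3 counts per library. The lower call in unstimulated KO cells rests on those few counts and was lost without any 1 of 9 libraries.

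**Figure D2:**
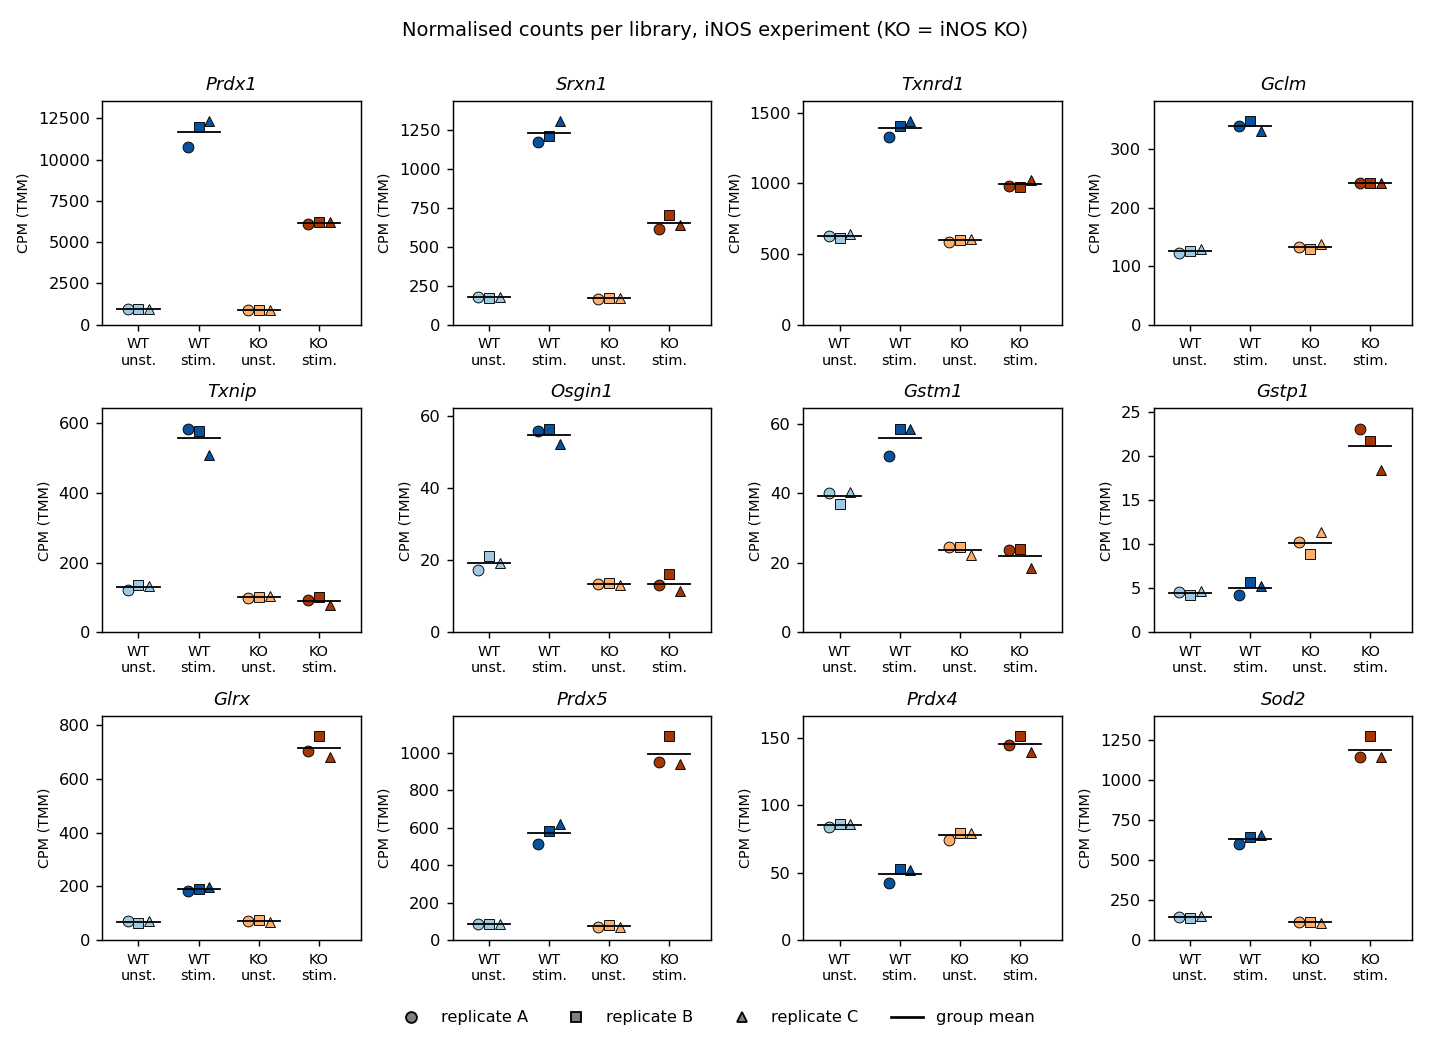
Levels of 12 members in each library of the iNOS experiment: normalised counts (CPM, vertical axes from 0) by group, with 1 symbol per replicate and a line at the group mean. Prdx1, Srxn1, Txnrd1 and Gclm rose in both genotypes and reached lower levels in iNOS KO cells, whereas Glrx, Prdx5 and Sod2 reached higher levels there.

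Of the 7 genes of the thioredoxin system, 5 were lower and 1 was higher in stimulated KO than stimulated wildtype cells. Of all genes, 24.2% were called in each direction. Txnip, which binds thioredoxin and inhibits it, lay at 121, 137 and 134 CPM in unstimulated and 585, 577 and 508 CPM in stimulated wildtype libraries, and at 99.95, 102 and 106 CPM in unstimulated and 92, 101 and 78.7 CPM in stimulated KO libraries. Stimulated wildtype libraries stood far above the other 9 libraries, and stimulated KO libraries overlapped unstimulated KO ones. Txnip rose in wildtype (2.09 ± 0.088, adjusted p = 1.6e-12), lay at -0.18 ± 0.087, adjusted p = 0.091 in KO cells (-0.60 and called lower with library totals) and was lower in stimulated KO than stimulated wildtype cells (-2.62 ± 0.091, adjusted p = 5.06e-13), with an interaction of -2.28 ± 0.12, adjusted p = 3.16e-10. In unstimulated cells it was slightly lower in KO (-0.34 ± 0.086, adjusted p = 0.023), a call lost without any 1 of 5 of the 6 unstimulated libraries (-0.37 to -0.31, adjusted p = 0.0621 to 0.11).

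Srxn1, sulfiredoxin, which restores overoxidised peroxiredoxins, lay at 178, 175 and 176 CPM in unstimulated and 1178, 1216 and 1311 CPM in stimulated wildtype libraries, and at 166, 173 and 172 CPM in unstimulated and 617, 705 and 644 CPM in stimulated KO libraries. Stimulated wildtype libraries stood above stimulated KO ones, and the unstimulated genotypes lay close together. Srxn1 rose in wildtype (2.81 ± 0.066, adjusted p = 8.55e-16) and KO cells (1.94 ± 0.064, adjusted p = 9.37e-14) and was lower in stimulated KO cells (-0.91 ± 0.062, adjusted p = 2.13e-09), with an interaction of -0.86 ± 0.087, adjusted p = 6.6e-07. Txnrd1, the cytosolic thioredoxin reductase, lay at 627, 612 and 639 CPM in unstimulated and 1328, 1401 and 1441 CPM in stimulated wildtype libraries, and at 582, 599 and 606 CPM in unstimulated and 979, 971 and 1024 CPM in stimulated KO libraries. The order of the groups was that of Srxn1, again with no overlap of the stimulated groups. Txnrd1 rose in wildtype (1.15 ± 0.054, adjusted p = 5.82e-12) and KO cells (0.74 ± 0.053, adjusted p = 4.07e-09) and was lower in stimulated KO cells (-0.49 ± 0.053, adjusted p = 7.56e-07). Both promoters carry the match shown above.

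Txn1, the cytosolic thioredoxin (276 to 601 CPM), rose in wildtype (0.72 ± 0.067, adjusted p = 5.42e-08) and KO cells (0.98 ± 0.067, adjusted p = 1.99e-09). Its small interaction (0.26 ± 0.094, adjusted p = 0.0404) was lost without any 1 of 9 libraries. Txnrd3, the reductase best known from testis (7.71 to 16.9 CPM), rose in wildtype (0.53 ± 0.11, adjusted p = 0.000574, not called with library totals at 0.068), lay at -0.19 ± 0.12, adjusted p = 0.205 in KO cells (-0.60 and called lower with library totals) and was lower in stimulated KO than stimulated wildtype cells (-0.89 ± 0.12, adjusted p = 6.1e-06). The mitochondrial pair fell in wildtype cells. Txn2, mitochondrial thioredoxin (88 to 128 CPM), fell in wildtype (-0.39 ± 0.077, adjusted p = 0.000333) and lay at -0.0068 ± 0.077, adjusted p = 0.952 in KO cells (-0.42 and called lower with library totals), and Txnrd2, its reductase (16.5 to 35.4 CPM), fell in wildtype (-0.44 ± 0.086, adjusted p = 0.00027) and further in KO cells (-0.81 ± 0.088, adjusted p = 6.13e-07), with an interaction (-0.37 ± 0.12, adjusted p = 0.0244) lost without any 1 of 4 libraries.

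Glrx, the cytosolic glutaredoxin that removes glutathione from protein thiols, lay at 71.2, 65 and 70.4 CPM in unstimulated and 184, 192 and 196 CPM in stimulated wildtype libraries, and at 70, 74.7 and 68.2 CPM in unstimulated and 705, 759 and 680.2 CPM in stimulated KO libraries. The unstimulated genotypes overlapped, and stimulated KO libraries stood above all others. Glrx rose in wildtype (1.47 ± 0.067, adjusted p = 4.11e-12) and more in KO cells (3.33 ± 0.07, adjusted p = 3.16e-16), with an interaction of 1.86 ± 0.093, adjusted p = 1.13e-10. Glrx2, its mitochondrial counterpart (13.4 to 23.9 CPM), rose in wildtype (0.49 ± 0.10, adjusted p = 0.000651) and KO cells (0.63 ± 0.10, adjusted p = 6.81e-05) on the TMM scale, calls lost with library totals (0.024 and 0.21).

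All 6 peroxiredoxins, thiol peroxidases that reduce hydrogen peroxide, differed between genotypes in stimulated cells: Prdx1 was lower in KO and the other 5 were higher. Over all genes, 24.2% were lower and 24.2% higher. Prdx1, the abundant cytosolic enzyme, lay at 968, 965 and 965 CPM in unstimulated and 10766, 11972 and 12337 CPM in stimulated wildtype libraries, and at 911, 909 and 919 CPM in unstimulated and 6094, 6211 and 6249 CPM in stimulated KO libraries. Stimulated wildtype libraries stood far above stimulated KO ones, and both far above all unstimulated ones. It took 0.919% to 1.00% of all counts in stimulated wildtype and 0.542% to 0.555% in stimulated KO libraries, against 0.107% to 0.111% in unstimulated ones. Prdx1 rose in wildtype (3.60 ± 0.058, adjusted p = 1.05e-17) and KO cells (2.76 ± 0.056, adjusted p = 2.23e-16) and was lower in stimulated KO cells (-0.92 ± 0.053, adjusted p = 2.97e-10), with an interaction of -0.84 ± 0.075, adjusted p = 1.46e-07. Prdx5, found in mitochondria, peroxisomes and cytosol, lay at 86.5, 84.2 and 87 CPM in unstimulated and 514, 582 and 620.2 CPM in stimulated wildtype libraries, and at 70.3, 81.2 and 71.7 CPM in unstimulated and 951, 1089 and 939.9 CPM in stimulated KO libraries. Stimulated KO libraries stood above stimulated wildtype ones, and both above all unstimulated ones. Prdx5 rose in wildtype (2.74 ± 0.085, adjusted p = 2.77e-14) and more in KO cells (3.74 ± 0.088, adjusted p = 1.29e-15), with an interaction of 1.00 ± 0.11, adjusted p = 2.33e-06.

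Prdx4, the peroxiredoxin of the endoplasmic reticulum, changed in opposite directions by genotype. It lay at 83.9, 86.3 and 85.8 CPM in unstimulated and 42.2, 53 and 51.9 CPM in stimulated wildtype libraries, and at 74.4, 79.2 and 79.7 CPM in unstimulated and 145, 151 and 139.9 CPM in stimulated KO libraries. Stimulated wildtype libraries were the lowest and stimulated KO libraries the highest of the 4 groups. Prdx4 fell in wildtype (-0.80 ± 0.081, adjusted p = 1.63e-07) and rose in KO cells (0.90 ± 0.079, adjusted p = 4.62e-08), with an interaction of 1.70 ± 0.11, adjusted p = 4.05e-09. Prdx3, the mitochondrial enzyme, lay at 93.1, 92.8 and 103 CPM in unstimulated and 33.6, 36.7 and 33.4 CPM in stimulated wildtype libraries, and at 92.3, 100.2 and 93.5 CPM in unstimulated and 71.7, 70.3 and 68.5 CPM in stimulated KO libraries. The lowest were the stimulated wildtype libraries, and unstimulated genotypes overlapped. Prdx3 fell in wildtype (-1.48 ± 0.072, adjusted p = 1.17e-11) and less in KO cells (-0.44 ± 0.069, adjusted p = 4.34e-05), with an interaction of 1.04 ± 0.10, adjusted p = 3.66e-07.

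Prdx2, a cytosolic relative of Prdx1, lay at 184, 182 and 191 CPM in unstimulated and 133, 139.6 and 156 CPM in stimulated wildtype libraries, and at 166, 176 and 174 CPM in unstimulated and 218, 256 and 217 CPM in stimulated KO libraries. The stimulated wildtype group was the lowest and stimulated KO libraries the highest. Prdx2 fell in wildtype (-0.38 ± 0.077, adjusted p = 0.000389) and rose in KO cells (0.42 ± 0.076, adjusted p = 0.000175, but 0.0036 and not called with library totals). In the table Prdx2 overlaps Junb, which held 743% as many counts, on the other strand, so its values are uncertain. Prdx6, which has a single active cysteine (141 to 232 CPM), fell slightly in wildtype (-0.22 ± 0.08, adjusted p = 0.0229, lost without unstimulated C or stimulated A), rose in KO cells (0.41 ± 0.08, adjusted p = 0.000403, but -0.012 with library totals) and gave an interaction of 0.63 ± 0.11, adjusted p = 0.000298.

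The glutathione peroxidases and catalase all rose in wildtype cells on the TMM scale, and 3 of the 4 were lower in stimulated KO than stimulated wildtype cells. The shares over all genes were 32.4% for the rise and 24.2% for the lower level in KO. Cat, catalase (179 to 350.0 CPM), rose in wildtype (0.88 ± 0.061, adjusted p = 1.25e-09) and less in KO cells (0.32 ± 0.061, adjusted p = 0.000317, but -0.10 with library totals) and was lower in stimulated KO cells (-0.56 ± 0.061, adjusted p = 8.01e-07). Gpx4, which reduces lipid peroxides and restrains ferroptosis (133 to 250.3 CPM), rose in wildtype (0.49 ± 0.085, adjusted p = 9.4e-05, not called with library totals at 0.024), lay at 0.058 ± 0.086, adjusted p = 0.608 in KO cells (but -0.36 and called lower with library totals) and was lower in stimulated KO cells (-0.65 ± 0.086, adjusted p = 6.76e-06). The pseudogene Gpx4-ps2 held 19.7% as many counts as Gpx4, and reads may be split between them. Gpx1, the main cytosolic glutathione peroxidase (36.2 to 58.1 CPM), rose in wildtype (0.42 ± 0.092, adjusted p = 0.000829, but -0.046 with library totals), lay at 0.17 ± 0.092, adjusted p = 0.148 in KO cells (but -0.25 and called lower with library totals) and was lower in stimulated KO cells (-0.36 ± 0.092, adjusted p = 0.00369). Gpx3, the secreted form, was near the limit of detection at 0.15, 0.111 and 0.352 CPM in unstimulated and 1.73, 0.743 and 1.32 CPM in stimulated wildtype libraries, and at 0.385, 0.498 and 0.293 CPM in unstimulated and 1.16, 0.937 and 0.418 CPM in stimulated KO libraries. The stimulated genotypes overlapped. Its rise passed in wildtype (2.61 ± 0.52, adjusted p = 0.000334) and not in KO cells (1.07 ± 0.48, adjusted p = 0.0734).

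Sod2, the mitochondrial manganese superoxide dismutase, lay at 142, 140.1 and 149 CPM in unstimulated and 598, 643 and 658 CPM in stimulated wildtype libraries, and at 113, 115 and 109 CPM in unstimulated and 1142, 1271 and 1142 CPM in stimulated KO libraries. Stimulated KO libraries stood above stimulated wildtype ones, and unstimulated KO libraries below unstimulated wildtype ones. Sod2 rose in wildtype (2.14 ± 0.064, adjusted p = 1.77e-14) and more in KO cells (3.40 ± 0.067, adjusted p = 1.71e-16), with an interaction of 1.26 ± 0.088, adjusted p = 7.3e-09, and was lower in unstimulated KO cells (-0.35 ± 0.063, adjusted p = 0.00169). Sod1, the cytosolic copper and zinc enzyme, lay at 200.05, 194 and 207 CPM in unstimulated and 81.1, 94 and 101 CPM in stimulated wildtype libraries, and at 199, 188 and 195 CPM in unstimulated and 151, 169.9 and 139.9 CPM in stimulated KO libraries. The lowest values were in stimulated wildtype libraries, and the unstimulated genotypes overlapped. Sod1 fell in wildtype (-1.12 ± 0.085, adjusted p = 3.82e-09) and less in KO cells (-0.34 ± 0.083, adjusted p = 0.00256), with an interaction of 0.78 ± 0.12, adjusted p = 5.51e-05. Sod1 overlaps Scaf4 on the other strand in the table.

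Of the 6 mitochondrial members (Txn2, Txnrd2, Prdx3, Prdx5, Sod2 and Glrx2), 4 were higher and 1 (Txnrd2) was lower in stimulated KO than stimulated wildtype cells. Calls over all genes were 24.2% in each direction. The median log2 fold change of the 6 was 0.53, beside -0.0098 over the 40 members and -0.044 over all genes. The stimulated KO libraries held many more counts of proliferation markers than stimulated wildtype ones, as given above, and the part of this in the genotype differences was not tested. Per length, in RPKM (CPM divided by gene length in kilobases), Prdx1 and Txn1 were the highest members in each group of the iNOS experiment. Prdx1 lay at means of 317 and 300.1 RPKM in unstimulated wildtype and KO cells and at 3842 and 2032 RPKM when stimulated, and Txn1 at 300.1, 277, 495 and 547 RPKM in the same order. In stimulated wildtype cells Txn1 was followed by Srxn1 at 438 RPKM, whose libraries overlapped those of Txn1, then by Prdx5 at 268 and Txnrd1 at 196 RPKM. In stimulated KO cells Txn1 was followed by Prdx5 at 464 RPKM and Srxn1 at 232 RPKM, with no overlap between these neighbours.

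In the Akr1a1 experiment 39 of the 42 genes had enough counts, Mgst1 joining Ggt5 and Sod3 below the limit at 0 counts in all 8 libraries. Over 19569 genes tested with edgeR, stimulation raised 13 members and lowered 14 in wildtype RAW264.7 cells, against 18.5% and 19.2% of all genes, and raised 13 and lowered 15 in Akr1a1 KO cells, against 19.8% and 19.4%. The median log2 fold change of the members was -0.024 and -0.22, beside -0.028 and 0.024 over all genes. Without both unstimulated replicate B libraries, whose titles conflict with their other labels, 10 rose and 8 fell in wildtype and 11 rose and 8 fell in KO cells. The calls lost were those of Keap1, Gclm, Gstm1, Txn1, Txnrd1, Txnrd2, Prdx2, Gpx4 and Cat in wildtype and of Keap1, Ugdh, Slc7a11, Gclc, Gstm1, Gstp1, Prdx2, Gpx4 and Cat in KO cells, each with its direction kept. A fit that leaves 1 library in a group takes the spread from the other groups, and its p-value assumes that the lone library varies as they do. Library totals moved the medians over all genes to -0.26 and -0.12 in these comparisons.

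Members of the thioredoxin and glutathione systems were among those that rose, with 1 wildtype library apart. Prdx1 lay at 436 and 518 CPM in unstimulated and 1124 and 3038 CPM in stimulated wildtype libraries, and at 519.6 and 519 CPM in unstimulated and 2429 and 2861 CPM in stimulated KO libraries. Stimulated wildtype A stood at a lower level than the other 3 stimulated libraries. Prdx1 rose in wildtype (2.12 ± 0.40, adjusted p = 0.00331) and KO cells (2.35 ± 0.40, adjusted p = 0.00197), and the wildtype value was 1.29 without stimulated wildtype B. Srxn1 lay at 70.3 and 70.2 CPM in unstimulated and 212 and 405 CPM in stimulated wildtype libraries, and at 81.1 and 82.1 CPM in unstimulated and 379.9 and 392 CPM in stimulated KO libraries. Here too stimulated wildtype A was the lowest of the stimulated libraries, and all 4 lay above the unstimulated ones. Srxn1 rose in wildtype (2.13 ± 0.26, adjusted p = 0.000395) and KO cells (2.24 ± 0.26, adjusted p = 0.000292). Slc7a11 lay at 45.1 and 109 CPM in unstimulated and 207 and 679 CPM in stimulated wildtype libraries, and at 150.3 and 149 CPM in unstimulated and 788 and 616 CPM in stimulated KO libraries. The unstimulated wildtype clones also differed, and stimulated wildtype A was again the lowest stimulated library. Slc7a11 rose in wildtype (2.52 ± 0.56, adjusted p = 0.00809, but 1.48 without stimulated wildtype B) and KO cells (2.23 ± 0.56, adjusted p = 0.0131, a call lost without any 1 of 3 KO libraries, adjusted p = 0.0622 to 0.0794).

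Txnrd1 lay at 346 and 335 CPM in unstimulated and 643 and 885 CPM in stimulated wildtype libraries, and at 289.7 and 292 CPM in unstimulated and 962 and 688 CPM in stimulated KO libraries. Stimulated libraries stood above unstimulated ones in both genotypes. Txnrd1 rose in wildtype (1.17 ± 0.20, adjusted p = 0.00241, but 1.14 and adjusted p = 0.0526 without both unstimulated B libraries) and KO cells (1.50 ± 0.21, adjusted p = 0.00064). Osgin1 lay at 10.5 and 8.75 CPM in unstimulated and 25.4 and 18.9 CPM in stimulated wildtype libraries, and at 11.2 and 10.3 CPM in unstimulated and 36.4 and 34.7 CPM in stimulated KO libraries. The 2 stimulated KO libraries were the highest. Osgin1 rose in wildtype (1.21 ± 0.20, adjusted p = 0.00161) and KO cells (1.72 ± 0.20, adjusted p = 0.000252). Gclm lay at 74.5 and 62.5 CPM in unstimulated and 90.4 and 116 CPM in stimulated wildtype libraries, and at 56 and 71.2 CPM in unstimulated and 135 and 109.7 CPM in stimulated KO libraries. The stimulated libraries lay above the unstimulated ones. Gclm rose in wildtype (0.59 ± 0.19, adjusted p = 0.0361, a call lost without unstimulated A, unstimulated B or stimulated B, and with library totals) and KO cells (0.94 ± 0.19, adjusted p = 0.00431). The regulator Bach1 lay at 49.6 and 56 CPM in unstimulated and 79.1 and 88.6 CPM in stimulated wildtype libraries, and at 47 and 52.1 CPM in unstimulated and 109 and 109 CPM in stimulated KO libraries. Again stimulated libraries lay above unstimulated ones, KO clones the highest. Bach1 rose in wildtype (0.67 ± 0.12, adjusted p = 0.00331) and KO cells (1.13 ± 0.13, adjusted p = 0.000206).

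Mafg lay at 123 and 138 CPM in unstimulated and 208 and 252 CPM in stimulated wildtype libraries, and at 120.0 and 129 CPM in unstimulated and 215 and 213 CPM in stimulated KO libraries. Stimulated libraries lay above unstimulated ones, and the genotypes overlapped. Mafg rose in wildtype (0.82 ± 0.13, adjusted p = 0.00166) and KO cells (0.78 ± 0.13, adjusted p = 0.00206). Keap1 lay at 64.7 and 75.9 CPM in unstimulated and 46.9 and 47.6 CPM in stimulated wildtype libraries, and at 66.8 and 60.9 CPM in unstimulated and 44.7 and 47.3 CPM in stimulated KO libraries. Stimulated libraries were the lower. Keap1 fell in wildtype (-0.57 ± 0.13, adjusted p = 0.00773) and KO cells (-0.47 ± 0.13, adjusted p = 0.0187), calls lost without unstimulated wildtype B (-0.45), without unstimulated KO A (-0.41) and without stimulated KO A (-0.44). Nfe2l2 lay at 141 and 161 CPM in unstimulated and 112 and 125 CPM in stimulated wildtype libraries, and at 147 and 157 CPM in unstimulated and 107 and 128 CPM in stimulated KO libraries. The stimulated libraries lay below the unstimulated ones, and neither the wildtype (-0.35 ± 0.14, adjusted p = 0.08) nor the KO comparison (-0.38 ± 0.14, adjusted p = 0.0612) passed, though both were called lower with library totals (-0.58 and -0.54).

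Glrx, Prdx5, Gpx3 and Sod2 also rose in both genotypes. Glrx lay at 31.8 and 36.4 CPM in unstimulated and 416 and 368 CPM in stimulated wildtype libraries, and at 35.8 and 38.2 CPM in unstimulated and 254 and 331 CPM in stimulated KO libraries. Every stimulated library was far above every unstimulated one. The changes were 3.52 ± 0.17, adjusted p = 4.47e-06 in wildtype and 2.98 ± 0.17, adjusted p = 7.85e-06 in KO cells. Prdx5 lay at 84 and 102 CPM in unstimulated and 657 and 898 CPM in stimulated wildtype libraries, and at 119 and 111 CPM in unstimulated and 432 and 489.9 CPM in stimulated KO libraries. Both stimulated wildtype clones stood above both stimulated KO clones. The changes were 3.06 ± 0.19, adjusted p = 1.28e-05 and 2.00 ± 0.19, adjusted p = 8.35e-05. Gpx3 lay at only 0.0726 and 0.15 CPM in unstimulated and 1.71 and 2.25 CPM in stimulated wildtype libraries, and at 0.157 and 0.313 CPM in unstimulated and 2.34 and 3.7 CPM in stimulated KO libraries. The stimulated libraries were higher, at few counts. The changes were 3.91 ± 0.59, adjusted p = 0.00109 and 3.55 ± 0.56, adjusted p = 0.00128. Sod2 lay at 96.9 and 101 CPM in unstimulated and 226 and 182 CPM in stimulated wildtype libraries, and at 102 and 106 CPM in unstimulated and 219 and 221 CPM in stimulated KO libraries. The genotypes overlapped when stimulated. The changes were 1.04 ± 0.13, adjusted p = 0.000453 and 1.08 ± 0.13, adjusted p = 0.000356.

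Several detoxification enzymes fell. Ephx1 lay at 50 and 53.8 CPM in unstimulated and 3.64 and 2.36 CPM in stimulated wildtype libraries, and at 85.4 and 57.9 CPM in unstimulated and 2.28 and 2.83 CPM in stimulated KO libraries. No stimulated library came near an unstimulated one. Ephx1 fell in wildtype (-4.13 ± 0.28, adjusted p = 1.71e-05) and KO cells (-4.80 ± 0.28, adjusted p = 9.31e-06). Mgst3 lay at 28.7 and 29 CPM in unstimulated and 2.83 and 1.35 CPM in stimulated wildtype libraries, and at 21.5 and 23.6 CPM in unstimulated and 1 and 2.7 CPM in stimulated KO libraries. The separation was again complete. Mgst3 fell in wildtype (-3.81 ± 0.45, adjusted p = 0.000307) and KO cells (-3.60 ± 0.45, adjusted p = 0.000386). Gsto1 lay at 35 and 36.1 CPM in unstimulated and 8.85 and 4.73 CPM in stimulated wildtype libraries, and at 35.7 and 45.1 CPM in unstimulated and 5.96 and 9.92 CPM in stimulated KO libraries. All 4 stimulated libraries were lower than all unstimulated ones. Gsto1 fell in wildtype (-2.40 ± 0.33, adjusted p = 0.000722) and KO cells (-2.35 ± 0.33, adjusted p = 0.000727).

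Gstm1 lay at 21.6 and 10.5 CPM in unstimulated and 3.94 and 0.394 CPM in stimulated wildtype libraries, and at 12.9 and 8.24 CPM in unstimulated and 2.08 and 1.32 CPM in stimulated KO libraries. Stimulated libraries were lower but the clones spread widely. Gstm1 fell in wildtype (-2.92 ± 0.82, adjusted p = 0.0224, -2.31 and not called without unstimulated wildtype A, -5.26 without stimulated wildtype A) and KO cells (-2.63 ± 0.82, adjusted p = 0.0341, lost without any 1 of 4 KO libraries). Gstm4 held 32.1% and Gstm5 20.1% as many counts as Gstm1 in this experiment, and Gstp3 62.7% as many as Gstp1. Counts may be split between such copies. Gstp1 lay at 3.78 and 2.19 CPM in unstimulated and 2.38 and 2.25 CPM in stimulated wildtype libraries, and at 7.23 and 4.66 CPM in unstimulated and 2.68 and 1.26 CPM in stimulated KO libraries. The wildtype states overlapped. It lay at -0.34 ± 0.47, adjusted p = 0.605 in wildtype and fell in KO cells (-1.59 ± 0.47, adjusted p = 0.0275), a call lost without unstimulated KO A or stimulated KO B. Prdx4 lay at 64.5 and 75.7 CPM in unstimulated and 10.2 and 8.89 CPM in stimulated wildtype libraries, and at 78 and 80.5 CPM in unstimulated and 8.17 and 13.1 CPM in stimulated KO libraries. Stimulated libraries were lower in both genotypes without overlap. Prdx4 fell in wildtype (-2.88 ± 0.22, adjusted p = 3.59e-05) and KO cells (-2.89 ± 0.22, adjusted p = 3.45e-05).

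Prdx3, Prdx2 and Sod1 fell too. Prdx3 lay at 92.7 and 95.4 CPM in unstimulated and 43.7 and 31.4 CPM in stimulated wildtype libraries, and at 94.4 and 108 CPM in unstimulated and 34 and 31.9 CPM in stimulated KO libraries. The states were apart and the genotypes overlapped when stimulated. The changes were -1.33 ± 0.17, adjusted p = 0.00046 in wildtype and -1.62 ± 0.17, adjusted p = 0.000156 in KO cells. Prdx2 lay at 142 and 151 CPM in unstimulated and 102 and 69.2 CPM in stimulated wildtype libraries, and at 132 and 139.6 CPM in unstimulated and 56.3 and 77.5 CPM in stimulated KO libraries. Stimulated libraries were the lower. The changes were -0.78 ± 0.21, adjusted p = 0.0179, lost without unstimulated wildtype B or stimulated wildtype B (-0.48), and -1.02 ± 0.21, adjusted p = 0.00501. Sod1 lay at 94.6 and 90.5 CPM in unstimulated and 39.2 and 42.4 CPM in stimulated wildtype libraries, and at 85.2 and 88.3 CPM in unstimulated and 38.5 and 32.2 CPM in stimulated KO libraries. The states were again apart. The changes were -1.18 ± 0.13, adjusted p = 0.000202 and -1.30 ± 0.13, adjusted p = 0.000117.

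Glutathione synthesis and recycling split by gene. Gclc lay at 160.0 and 141 CPM in unstimulated and 58.8 and 74.6 CPM in stimulated wildtype libraries, and at 141 and 131 CPM in unstimulated and 93.3 and 69.5 CPM in stimulated KO libraries. Stimulated libraries were lower. Gclc fell in wildtype (-1.17 ± 0.18, adjusted p = 0.00116) and KO cells (-0.74 ± 0.18, adjusted p = 0.0108, lost without unstimulated KO A or stimulated KO B at -0.69 and -0.53). Gsr lay at 119 and 125 CPM in unstimulated and 49 and 57.8 CPM in stimulated wildtype libraries, and at 98.5 and 111 CPM in unstimulated and 53.9 and 58.8 CPM in stimulated KO libraries. Its stimulated libraries lay below all unstimulated ones. Gsr fell in wildtype (-1.19 ± 0.13, adjusted p = 0.000215) and KO cells (-0.90 ± 0.13, adjusted p = 0.000863). Txn1 (141 to 371 CPM) fell in wildtype (-0.99 ± 0.18, adjusted p = 0.00305, but -0.85 and adjusted p = 0.0546 without both unstimulated B libraries) and KO cells (-0.98 ± 0.18, adjusted p = 0.00308), Gpx4 (103 to 187 CPM) in wildtype (-0.57 ± 0.16, adjusted p = 0.0227) and KO cells (-0.60 ± 0.16, adjusted p = 0.0174), and Cat (61.7 to 137 CPM) rose in wildtype (0.55 ± 0.13, adjusted p = 0.011) and KO cells (0.60 ± 0.13, adjusted p = 0.00655). The calls of Gpx4 were each lost without any 1 of 3 libraries, and that of Cat in wildtype without unstimulated A (0.51) and with library totals (0.31). Txnip, at 278 to 598 CPM, passed in neither genotype (-0.27 ± 0.23, adjusted p = 0.381 and 0.29 ± 0.23, adjusted p = 0.358). Txnrd2 fell in wildtype (-0.51 ± 0.13, adjusted p = 0.0153, lost without any 1 of 3 libraries) and Ugdh in KO cells (-0.51 ± 0.16, adjusted p = 0.0368, lost without any 1 of 3). Nqo1, Gss, Chac2, Txn2, Txnrd3, Glrx2, Prdx6 and Gpx1 passed in neither genotype, with log2 fold changes of -0.32 (Prdx6 in KO cells) to 0.98 (Nqo1 in wildtype).

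**Figure D3:**
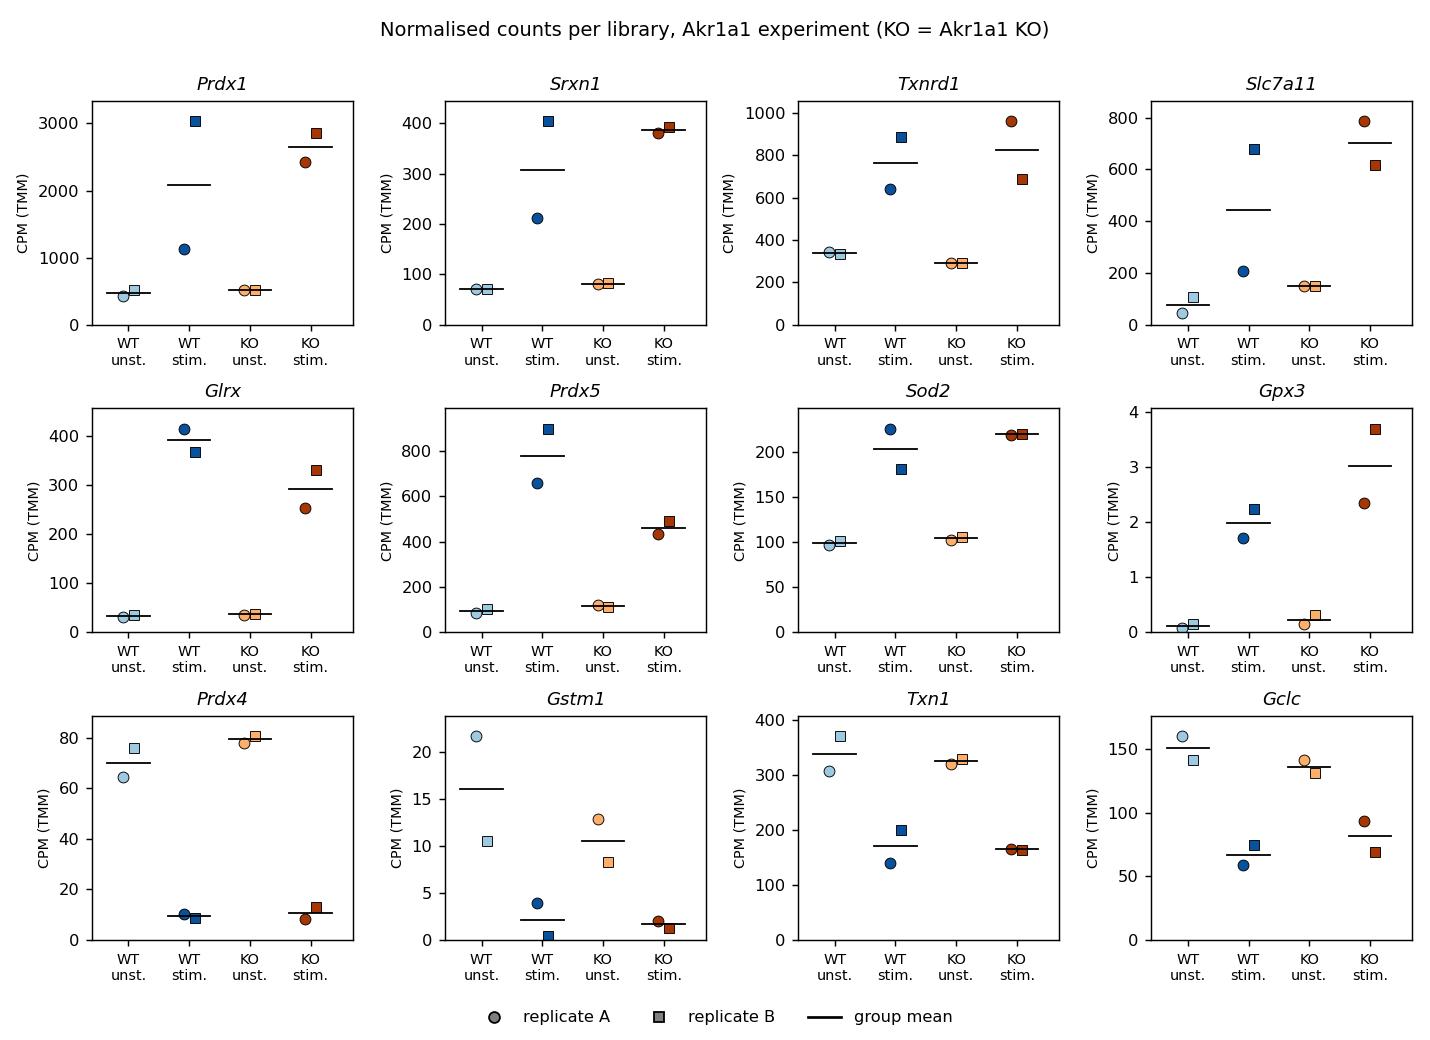
Levels of 12 members in each library of the Akr1a1 experiment: normalised counts (CPM, vertical axes from 0) by group, with 1 symbol per clonal replicate and a line at the group mean of 2. Stimulated wildtype replicate A lies below replicate B for Prdx1 (1124 against 3038 CPM), Srxn1 and Slc7a11.

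Akr1a1 KO was compared with wildtype RAW264.7 cells to ask whether loss of this reductase alters the levels of these genes. In stimulated cells 0 of 39 members passed in either direction with edgeR, against 0.0869% of all genes higher and 0.199% lower, with 6 members at an unadjusted p under 0.05 (Bach1, Osgin1, Txnip, Glrx, Prdx5 and Cat) and 1 called lower by DESeq2 (Prdx5). In unstimulated cells 0 passed, against 0.23% higher and 0.353% lower, with 1 (Cat) at an unadjusted p under 0.05 and 0 called by DESeq2. The interaction passed for 0, against 0.00511% and 0.0153%, with 3 (Bach1, Glrx and Prdx5) at an unadjusted p under 0.05 and 1 (Prdx5) called by DESeq2. With 2 clones per group the 95% confidence intervals were wide, their median half-width being 0.42 on the log2 scale in stimulated cells, and 28 of the 39 lay within -1 and 1.

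Prdx5 was the member with the smallest adjusted p in stimulated cells, at -0.75 ± 0.18, adjusted p = 0.185, with a 95% confidence interval of -1.17 to -0.34 and no overlap of the 2 KO and 2 wildtype clones. DESeq2 gave -0.76 (adjusted p = 0.00576), and edgeR without stimulated wildtype A, which sets 1 wildtype library against 2, gave -0.99 (adjusted p = 0.0475). Prdx1 lies 33.9 kb from Akr1a1 on chromosome 4 of the table, on the other strand. Its values for KO against wildtype were 0.35 ± 0.38, adjusted p = 0.783 in stimulated and 0.12 ± 0.38, adjusted p = 1 in unstimulated cells. Leaving out stimulated wildtype B, so that only the low library A stood for stimulated wildtype cells and other groups gave the spread, brought Prdx1 to 1.22 (adjusted p = 0.0323) and Srxn1 from 0.32 to 0.85 (adjusted p = 0.0376). Txnip lay at 0.63 ± 0.23, adjusted p = 0.365, Osgin1 at 0.68 ± 0.19, adjusted p = 0.251 and Slc7a11 at 0.66 ± 0.53, adjusted p = 0.69 with a 95% confidence interval of -0.56 to 1.89.

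The wildtype stimulation responses of the 2 experiments come from separate libraries, with different IFNγ doses and possibly different cell populations, and were set side by side without a test of their difference. Of 39 members tested in both, 27 passed in both, of which 13 rose in both (Bach1, Mafg, Osgin1, Slc7a11, Gclm, Txnrd1, Srxn1, Glrx, Prdx1, Prdx5, Gpx3, Cat and Sod2), 9 fell in both (Ephx1, Gsr, Gsto1, Mgst3, Txnrd2, Prdx2, Prdx3, Prdx4 and Sod1) and 5 passed in opposite directions. Over the 17398 genes tested in both, 35% passed in both, 16.1% rose in both, 16.8% fell in both and 2.13% passed in opposite directions. Keap1, Gclc, Gstm1, Txn1 and Gpx4 were the 5, each higher in the iNOS experiment and lower in the Akr1a1 experiment, Keap1 and Gclc turning negative in the iNOS experiment too with library totals, and Gstm1 and Gpx4 losing their call there, which left Txn1. Leaving out both unstimulated B libraries left 1 unstimulated library per genotype in the Akr1a1 experiment, so that fit cannot decide whether the opposite calls hold. The wildtype values of the 5 stayed negative there (Keap1 -0.46, Gclc -1.26, Gstm1 -3.355, Txn1 -0.85 and Gpx4 -0.48). Another 9 passed in the iNOS experiment alone, 0 in the Akr1a1 experiment alone and 3 in neither. Txnip is 1 of the 9, at 2.09 in the iNOS and -0.27 in the Akr1a1 experiment, where its unstimulated wildtype level was 359 and 485 CPM.

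**Figure D4:**
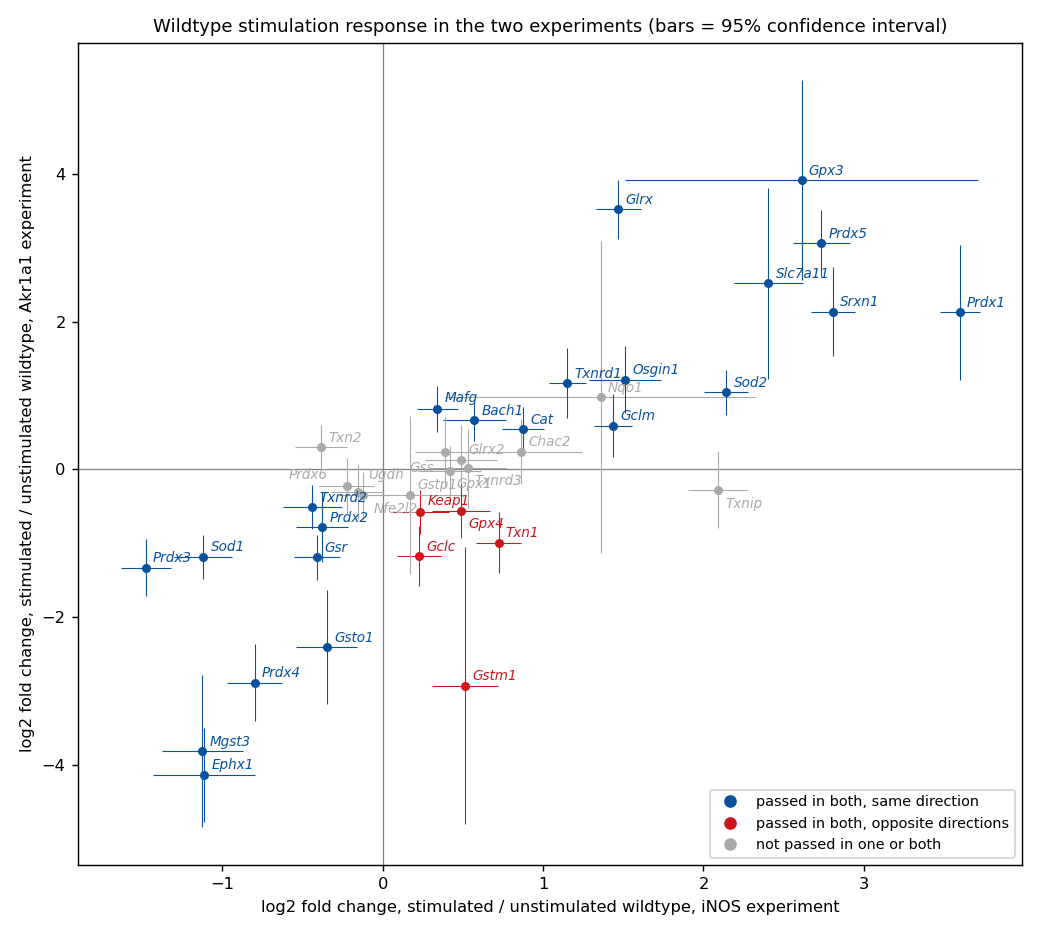
Wildtype stimulation response of 39 members in the iNOS experiment (horizontal axis) and the Akr1a1 experiment (vertical axis), as log2 fold changes with 95% confidence intervals. Blue points passed in both with 1 direction (22 genes), red points passed in opposite directions (Keap1, Gclc, Gstm1, Txn1 and Gpx4), and grey points did not pass in at least 1.

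From a list of 50 further genes of the same pathways, 46 were tested in the iNOS experiment, where 21 rose and 15 fell on stimulation in wildtype cells (against 32.4% and 28.5% of all genes) and 26 rose and 8 fell in KO cells (against 27.3% and 24.6%). Hmox1, heme oxygenase 1, rose in wildtype (4.49 ± 0.071, adjusted p = 7.81e-18) and KO cells (3.26 ± 0.067, adjusted p = 2.45e-16) and was lower in stimulated KO than stimulated wildtype cells (-1.29 ± 0.062, adjusted p = 3.02e-11). Ggct, which opens the degradation of gamma-glutamyl peptides, rose by 3.78 ± 0.15 in wildtype and was lower in stimulated KO cells (-1.26 ± 0.13, adjusted p = 3.17e-07). Cth, which makes cysteine from cystathionine, went the other way, from a fall in wildtype (-1.12 ± 0.14, adjusted p = 2.57e-06) to a rise in KO cells (2.92 ± 0.12, adjusted p = 1.5e-12), with an interaction of 4.04 ± 0.18, adjusted p = 3.45e-11. In stimulated KO against wildtype cells 14 of the 46 were higher and 15 lower, against 24.2% of all genes each way, and in unstimulated cells 4 and 11, against 1.88% and 4.09%. The interaction passed for 19 of the 46, 13 of them with a more positive response in KO cells, against 20% of all genes more positive and 15.4% more negative.

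In the Akr1a1 experiment 44 genes of that list were tested. On stimulation 16 rose and 10 fell in wildtype (against 18.5% and 19.2% of all genes) and 15 rose and 13 fell in KO cells (against 19.8% and 19.4%). Hmox1 (3.77 ± 0.27, adjusted p = 2.42e-05), Sqstm1, the autophagy receptor that binds KEAP1 (3.61 ± 0.23, adjusted p = 1.22e-05), Maff, a small MAF protein (3.25 ± 0.18, adjusted p = 6.85e-06), and Fth1, the ferritin heavy chain (2.85 ± 0.20, adjusted p = 1.96e-05), rose in wildtype cells. Akr1a1 KO differed from wildtype in 1 gene of the list in stimulated cells, Idh1, the cytosolic NADPH-forming isocitrate dehydrogenase, which was lower (-1.45 ± 0.15, adjusted p = 0.00997), and in 1 in unstimulated cells, Ggt7, also lower (-4.05 ± 0.55, adjusted p = 0.0213), and the interaction passed for 0 of 44 with edgeR, with 5 at an unadjusted p under 0.05. Idh1 lay at 145 and 111 CPM in stimulated wildtype and 45.6 and 48.1 CPM in stimulated KO libraries, with no overlap.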

How the data were processed

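Both tables were deposited as raw counts per gene, 1 column per library, made by the authors from poly-A libraries sequenced by Novogene. Per the submitters' processing notes, CASAVA, STAR and build mm10 were used, and the methods of the study name DESeq2 for testing. Whether counting used strand is not given in the sources used here. The columns of gene length, name and position in the deposited tables were used only as annotation. Each table was fitted whole, in its own experiment, with edgeR 4.0.16 (R 4.3.3): genes with at least 10 counts in total, TMM scaling, 1 mean per group and the quasi-likelihood test, with Benjamini-Hochberg adjustment over all genes tested and calls at an adjusted p under 0.05 with no fold limit. Log2 fold changes are printed with the standard error of the fit, CPM on the TMM-scaled library and RPKM by the tables' gene length. All p-values measure the spread between the libraries of a group (3 in the iNOS and 2 in the Akr1a1 experiment), and where an alternative leaves 1 library in a group its spread is taken from the other groups. Library totals were 11876719 to 44583327 counts, and a floor of 3 counts per library stands for a group at 0. The scripts were tested on simulated data.

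The members and the other gene lists were chosen with earlier results of these data known. All 42 members are accounted for, the 4 regulators and the members called with a log2 fold change above 1 in size in any comparison are given library by library in at least 1 experiment, and up to 4 further pathway genes per comparison are named among those called. The alternatives tried were DESeq2 1.42.0 for the test, DESeq2 size factors, library totals, other filters, a fold limit of 1, only the groups compared, a replicate block, leaving out each library, and leaving out both libraries whose titles conflict with their labels. A crossed replicate block was added after the data were seen. Promoters are RefSeq windows on GRCm38.p6, read on the strand of the window given.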

Additional observations from a re-analysis of the deposited data

Results flagged for a closer look

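In the iNOS experiment the stimulation response differed between iNOS KO and wildtype cells by more than 1 on the log2 scale in 8 members, each by the interaction term of edgeR's quasi-likelihood test at an adjusted p under 0.05. The KO response was more negative for Txnip (-2.28), the thioredoxin inhibitor, and Osgin1 (-1.51). It was more positive for Glrx (1.86), the glutaredoxin, Prdx4 (1.70), Prdx3 (1.04) and Prdx5 (1.00) among the peroxiredoxins, and Sod2 (1.26), the mitochondrial superoxide dismutase. Mgst1 gave 4.83, a fitted value that rests on 1, 2 and 8 counts in unstimulated wildtype libraries against 0 in unstimulated KO libraries, and that lost its call without unstimulated wildtype C (3.57, adjusted p = 0.0512).

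In 5 members the wildtype stimulation response passed in opposite directions in the 2 experiments, a difference that was not tested itself. Only Txn1 kept opposite calls once library totals were used in the iNOS experiment. Leaving out both libraries of conflicting titles left 1 unstimulated library per genotype in the Akr1a1 experiment. That fit kept the 5 negative but cannot decide whether the calls hold. Keap1 lay at 0.23 in the iNOS and -0.57 in the Akr1a1 experiment, Gclc at 0.23 and -1.17, Gstm1 at 0.51 and -2.92, Txn1 at 0.72 and -0.99, and Gpx4 at 0.49 and -0.57. Single libraries were not tested for standing apart, since each group held 2 or 3, and those that did by their spread are named with the library totals above.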

How the results depend on the processing

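Only the scale turned the sign of called values, while the fold limit given below lost the most calls (107). Library totals in place of TMM moved the members that rose on stimulation in the iNOS experiment from 26 to 14 in wildtype and from 24 to 12 in KO cells, and those that fell in KO cells from 6 to 15. The share of all genes that rose moved from 32.4% to 21.6% in wildtype and from 27.3% to 16.5% in KO cells. That of genes that fell in KO cells moved from 24.6% to 42.1%. In wildtype the values turned to -0.23 for Keap1, -0.12 for Mafg, -0.24 for Gclc, -0.074 for Gss and -0.046 for Gpx1, and in KO cells to -0.067 for Nfe2l2, -0.16 for Mafg, -0.41 for Osgin1, -0.065 for Ugdh, -0.33 for Gsr, -0.012 for Prdx6, -0.25 for Gpx1, -0.36 for Gpx4 and -0.10 for Cat. These were the 14 turns of sign in which the value was called on the TMM scale or with library totals. Library totals also called Nfe2l2 (-0.59) and Ugdh (-0.62) lower in wildtype and Gstm1 (-0.53), Txn2 (-0.42), Txnrd3 (-0.60) and Txnip (-0.60) in KO cells. Over the values of single members under all alternatives, 7090 kept their side of the threshold, 188 of them uncalled values that changed sign (21 with library totals), while 222 lost and 61 gained the call.

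In the iNOS experiment a fold limit of 1 on the log2 scale left 13 higher and 4 lower on stimulation in wildtype cells. In KO cells it left 8 and 0. It left 4 and 3 in stimulated KO against wildtype cells, 1 lower in unstimulated ones, and 6 and 2 in the interaction. In the Akr1a1 experiment it left 9 lower in each genotype. There it lost 9 calls in each genotype, rises among them (Mafg, Gclm and Cat in both and Bach1 in wildtype). Fitting only the groups compared gave 2 higher in unstimulated iNOS KO cells. Without both libraries whose titles conflict with their labels, 8 fell in each genotype of the Akr1a1 experiment. In Akr1a1 KO against wildtype cells, no filter on counts called 2 higher (Slc7a11 and Txnip) and 1 lower (Prdx5) in stimulated cells, 1 higher (Slc7a11) in unstimulated cells and 1 lower (Prdx5) in the interaction, and DESeq2 called 1 lower (Prdx5) in stimulated cells and 1 lower (Prdx5) in the interaction.

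Leaving out 1 library at a time gave, in wildtype and KO stimulation of the iNOS experiment, 24 to 26 and 24 to 25 higher and 10 to 13 and 6 to 7 lower. It gave 13 to 15 higher and 15 lower in stimulated KO against wildtype cells, 1 higher and 4 (without unstimulated wildtype B) to 11 (without stimulated KO B) lower in unstimulated ones, and 14 to 16 and 11 to 13 in the interaction. In the Akr1a1 experiment it gave 11 to 14 higher and 10 to 14 lower in wildtype, 12 to 13 and 9 (without unstimulated KO A) to 17 in KO cells, and 0 to 2 higher (2 without stimulated wildtype B) and 0 to 1 lower (1 without stimulated wildtype A) in stimulated KO against wildtype cells, with 0 in the unstimulated cells and the interaction.

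With the replicate letter as a replicate block, the count of members that fell in Akr1a1 KO cells was 16 in place of 15, and no other count of members changed. In the iNOS experiment deviations of same-lettered libraries correlated at -0.383 to 0.379. Across stimulation those of A, B and C correlated at -0.086, -0.141 and 0.0333 in wildtype and at 0.262, 0.379 and 0.0488 in KO cells. Different letters gave -0.345 to 0.296 in KO cells, so whether letters mark pairs there is not known. In the Akr1a1 experiment, whose replicates are clones, deviations of same-lettered libraries correlated across stimulation at 0.434 in wildtype and 0.209 in KO cells. A letter may thus mark a clone there, and a replicate block within genotype also gave 16. Stimulated wildtype and KO clones gave -0.115, and the crossed pairing called 0 higher and 0 lower. Having 2 clones per group limits the Akr1a1 comparisons, and genes near the floor (Nqo1, Gpx3 and Mgst1) rest on few counts.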
